A study of Mus musculus with 2 samples.

Results

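The nuclear factor-κB (NF-κB) genes examined here were the 5 subunits *Rela*, *Relb*, *Rel*, *Nfkb1* and *Nfkb2* and 5 genes grouped as feedback inhibitors. These were *Nfkbia*, *Nfkbie*, *Nfkbiz*, *Bcl3* and *Tnfaip3*. The group is called inhibitors below, although *Nfkbiz* encodes a cofactor that some NF-κB targets need. All 10 genes were taken by symbol from the normalized table of kidney transcripts and were found among its 19829 genes. In the transgenic kidney all 10 were below the wild-type kidney, and 9 of them were at least 2-fold lower. Of the 14997 genes that reached a value of 1 in either library, 7696 were lower there and 10.5% were at least 2-fold lower. Within the set, *Nfkbiz*, *Relb*, *Tnfaip3*, *Nfkb2* and *Bcl3* differed by about 5-fold to 6-fold, *Nfkbia* and *Nfkbie* by 2.63-fold and 3.63-fold, and *Nfkb1*, *Rela* and *Rel* by about 2-fold.

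Kidney mRNA of mice put through a protocol of acute kidney injury (AKI) was sequenced, 1 library per group. The WT+AKI library came from control wild-type (WT) mice. The TG+AKI library came from *Inmt* transgenic (Tg) mice, which overexpress indolethylamine N-methyltransferase in proximal tubules. The comparison addressed what else differs in the kidney after this protocol when that enzyme is raised. The methods name a left kidney, the sample titles name mice in the plural, and the number of mice per library is not given. The libraries are called the wild-type and the transgenic kidney here. Per the study's methods, both were C57BL/6 mice given voclosporin, a calcineurin inhibitor, at 30 mg/kg daily by intraperitoneal injection from 8 weeks of age, and both underwent bilateral renal ischemia for 30 min followed by reperfusion (I/R) at 14 weeks of age, with harvest 48 h later in the methods and 24 h later in a figure legend. The voclosporin course is described as 2 weeks in one place and 6 weeks in another. After this protocol the study reported lower serum creatinine and urea nitrogen in Tg mice than in wild-type mice. AKI in the library names is therefore read here as the protocol and not as an equal degree of injury. The treatment field of both samples says that nothing was given, and the title of the Tg sample also names a conditional knockout. The promoter that drives the transgene is not given in the sources used here. *Inmt* itself was at 10.4 and 402.8, 38.5-fold higher in the library labelled transgenic. All values are normalized read counts, given with WT+AKI first and TG+AKI second where no library is named. The libraries held 38542764 and 36427421 reads, and 1 read stood for a value of 0.0236 and 0.0302. With 1 library per group no difference has a replicate check. Brackets give 95% intervals (exact, Clopper-Pearson) of a ratio from the reads of the 2 libraries, which cover counting error only and say nothing of variation between mice.

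NF-κB is a family of dimeric transcription factors. In the canonical pathway, dimers such as RelA with p50 (cut from the *Nfkb1* precursor) are held in the cytoplasm by IκB proteins until the IκB kinase (IKK) complex marks these for degradation. In the non-canonical pathway, NF-κB-inducing kinase leads to the processing of the *Nfkb2* precursor p100 to p52, which pairs with RelB. Many genes that the factor switches on encode its own brakes, and in the kidney the pathway is best known from tubular cells and leukocytes during inflammation after injury.

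The promoters of these genes are shown first, because they hold the sequence to which NF-κB binds. RefSeq promoters (GRCm38.p6, 250 bases before and 50 after each start, read in the direction of the gene) were matched for 7 of the 10 genes. No promoter was available for *Nfkb1*, *Relb* and *Nfkbiz*. The promoters were searched on both strands for the κB consensus, a decamer with a run of G at one end and CC at the other, and overlapping matches were kept. A match was found in 6 of the 7 genes, all but *Rela*. For comparison, 9.55% of the 27025 genes in the promoter table and 12.3% of the 11404 genes that were also compared here had one. The stretches below are written 5′ to 3′ with the matching bases in capitals, so that a reader can see the element in the genes whose levels follow.
*Nfkbia* (chr12:55492647-55492696, minus strand): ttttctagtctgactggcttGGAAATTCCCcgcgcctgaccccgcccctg
*Nfkbie* (chr17:45555574-45555623, plus strand): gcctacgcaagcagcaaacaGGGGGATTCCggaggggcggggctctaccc
*Bcl3* (chr7:19822724-19822773, minus strand): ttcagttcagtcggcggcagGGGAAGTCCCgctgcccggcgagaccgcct
*Rel* (chr11:23771031-23771081, minus strand): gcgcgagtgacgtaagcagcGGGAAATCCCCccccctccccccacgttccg
*Nfkb2*, first of the 3 starts in the table (chr19:46304678-46304755, plus strand): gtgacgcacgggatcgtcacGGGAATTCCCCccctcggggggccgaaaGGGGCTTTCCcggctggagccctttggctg
*Nfkb2*, innermost start (chr19:46305685-46305734, plus strand): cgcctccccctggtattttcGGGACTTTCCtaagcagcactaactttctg
*Tnfaip3* (chr10:19015393-19015555, minus strand): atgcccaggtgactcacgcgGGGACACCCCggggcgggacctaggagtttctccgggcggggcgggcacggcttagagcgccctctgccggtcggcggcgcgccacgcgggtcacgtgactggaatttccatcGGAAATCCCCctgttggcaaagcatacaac

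The match lay close to the start in most of these genes. It began 29 bases upstream in *Nfkbia*, 92 bases upstream in *Rel* and 106 bases upstream in *Nfkbie*, and at base 3 of the transcript in *Bcl3*. *Tnfaip3* had matches 125 and 12 bases upstream of its outer start and none at its inner start. At its first start *Nfkb2* held a pair of overlapping matches, the first 39 bases upstream, and another 11 bases upstream. At the innermost start the match began farther off, 225 bases upstream, and the same site was at base 11 from the middle start. The middle start also had a match 236 bases upstream, which is not printed above. A match of letters is a description of the promoter and does not show that the factor was bound in these kidneys.

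*Rela* (NCBI Gene ID 19697, chr19:5637442-5648134) encodes the main transactivating subunit of the canonical dimer. Its value was 61.0 in the wild-type and 29.1 in the transgenic kidney (2587 and 963 reads), which is 2.098-fold lower [1.95 to 2.26]. *Nfkb1* (ID 18033, chr3:135584655-135691969) encodes the p105 precursor of p50. It was at 50.9 and 27.1 (2158 and 898 reads), 1.88-fold lower in TG+AKI [1.74 to 2.03]. It was the only member that did not reach the 2-fold limit. *Rel* (ID 19696, chr11:23736847-23770969) encodes c-Rel, a subunit used mainly in lymphoid and myeloid cells. It was at 6.46 and 2.99 (274 and 99 reads), 2.16-fold lower in TG+AKI [1.71 to 2.75].

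The subunits of the non-canonical pathway stood further apart between the libraries. *Nfkb2* (ID 18034, chr19:46300994-46312400), which encodes p100, was at 68.8 in the wild-type and 14.04 in the transgenic kidney (2915 and 465 reads), 4.90-fold lower [4.44 to 5.41]. *Relb* (ID 19698, chr7:19606217-19629438), which encodes its partner, was at 17.7 and 2.99 (752 and 99 reads), 5.93-fold lower in TG+AKI [4.81 to 7.39]. The interval of neither gene reached that of *Rela*, *Nfkb1* or *Rel*.

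*Nfkbia* (ID 18035, chr12:55489409-55492647) encodes IκBα, the classical cytoplasmic inhibitor that is degraded on stimulation and made anew by NF-κB. It was at 64.5 in the wild-type and 24.5 in the transgenic kidney (2735 and 811 reads), 2.63-fold lower [2.43 to 2.85]. *Nfkbie* (ID 18037, chr17:45555700-45563169) encodes IκBε, a second cytoplasmic inhibitor. It was at 7.45 (316 reads) and 2.05 (68 reads), and 3.63-fold lower in TG+AKI [2.79 to 4.79]. The intervals of these cytoplasmic inhibitors overlapped.

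The genes of A20 and of the 2 nuclear IκB proteins in the set had larger folds. Only the interval of *Nfkbiz* lay wholly beyond that of *Nfkbie*, which overlapped those of *Bcl3* and *Tnfaip3*. *Nfkbiz* (ID 80859, chr16:55811375-55838954) encodes IκBζ, a nuclear cofactor that is needed for some secondary NF-κB targets, *Lcn2* among them. It was at 49.1 and 8.03 (2080 and 266 reads), 6.11-fold lower in TG+AKI [5.37 to 6.97]. *Bcl3* (ID 12051, chr7:19808462-19822824) encodes a nuclear IκB protein that binds p50 and p52 homodimers. It was at 12.2 and 2.54 (517 and 84 reads), 4.81-fold lower [3.81 to 6.13]. *Tnfaip3* (ID 21929, chr10:19000910-19015410) encodes A20, a ubiquitin-editing enzyme that ends signalling from TNF and Toll-like receptors. It was at 32.8 and 6.67 (1392 and 221 reads), 4.92-fold lower [4.27 to 5.70]. The intervals of these 3 genes overlapped one another and those of *Nfkb2* and *Relb*, so no order is read among the 5.

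**Figure D1:**
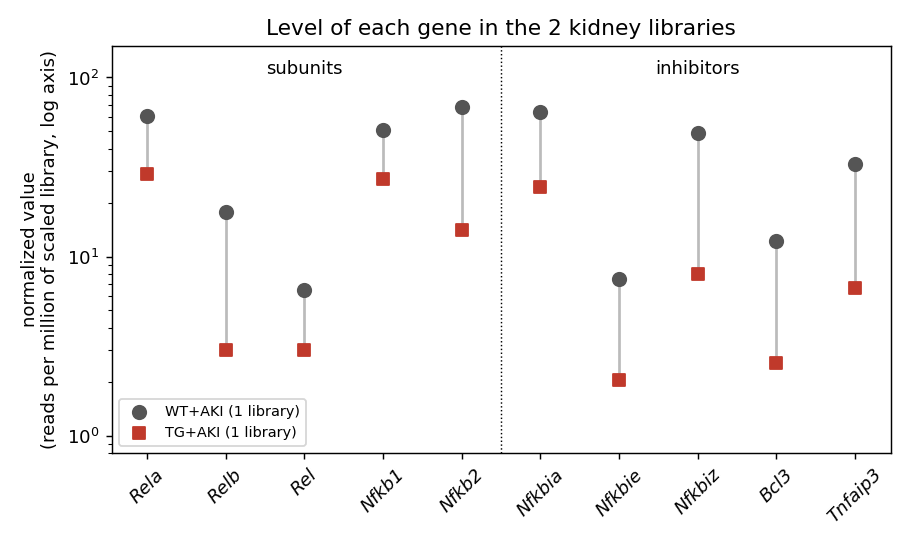
Normalized value (log axis) of the 10 NF-κB genes, with subunits on the left and inhibitors on the right. Each circle is the WT+AKI library and each square the TG+AKI library, and for every gene the square lies below the circle, from 50.9 and 27.1 for *Nfkb1* to 49.1 and 8.03 for *Nfkbiz*.

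Set against all genes, the set stood far to the lower side. On the log2 scale, with a pseudocount of 0.1 added to each value, 9 of the 10 genes were at least 2-fold lower in TG+AKI, whereas this held for 10.5% of the 14997 genes that reached a value of 1 in either library. None of the 10 was at least 2-fold higher, against 7.02% of all genes. The median log2 fold change of the 10 was -2.02 and that of all genes compared was -0.017. The interval lay wholly beyond 2-fold for 7 of the 10, while those of *Rela*, *Rel* and *Nfkb1* included 2-fold, and with a pseudocount of 1 the log2 fold change of *Rel* was -0.90. The share of all genes with an interval wholly beyond 2-fold was not computed. All members passed the minimum value of 1 in both libraries, the lowest value being 2.05. The 5 genes grouped as inhibitors had a median of -2.22 and a range from -2.60 to -1.39. Within this group the cytoplasmic inhibitor genes *Nfkbia* and *Nfkbie* were at -1.39 and -1.81. The 5 subunits had a median of -1.09 and a range from -2.53 to -0.91. Of all genes compared, 1.73% lay further to the lower side than *Nfkbiz* and 11.9% further than *Nfkb1*.

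The scaling of the libraries changed the size of these differences but not their direction. With equal column totals in both libraries, the median of all genes dropped by 0.28 on the log2 scale and all 10 members were at least 2-fold lower. The split over all genes moved with it, from 1578 lower and 1053 higher (40.0% of these higher) to 2295 lower and 666 higher (22.5% higher).

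**Figure D2:**
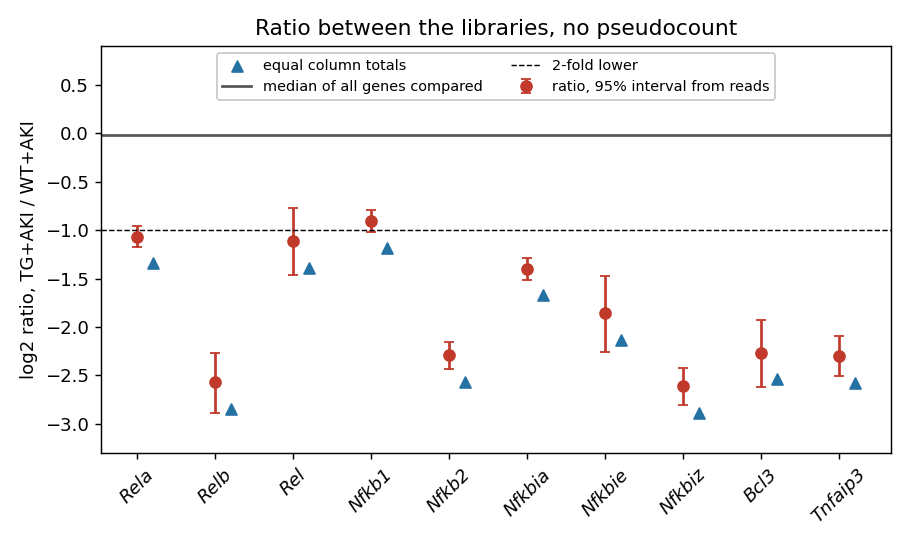
Log2 ratio of TG+AKI to WT+AKI for each gene (circles, with 95% intervals from the reads) and the same ratio with equal column totals (triangles). *Rela*, *Rel* and *Nfkb1* sit near the dashed line of a 2-fold lower level, the other 7 lie below it with their intervals, and the grey line is the median of all genes compared.

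A ratio between 2 genes within one library does not depend on scaling, so each member was also read against *Rela*. In WT+AKI there were 113 *Nfkb2* reads for every 100 *Rela* reads, and in TG+AKI 48.3. The ratio of these ratios was 0.429 [0.378 to 0.485], which is a 2.33-fold lower share of *Nfkb2* beside *Rela* in the transgenic kidney. *Relb* went from 29.1 to 10.3 reads per 100 *Rela* reads, with a ratio of 0.354 [0.280 to 0.443]. Both genes of the non-canonical dimer were thus lower in TG+AKI even when *Rela* was the yardstick. *Nfkbiz* went from 80.4 to 27.6 (0.344 [0.295 to 0.399]), *Tnfaip3* from 53.8 to 22.9 (0.427 [0.362 to 0.502]) and *Bcl3* from 19.98 to 8.72 (0.437 [0.338 to 0.558]). For *Nfkbia* the ratio was 0.797 [0.714 to 0.889] and for *Nfkbie* 0.578 [0.434 to 0.762]. *Rel* kept pace with *Rela* within counting error, at 10.6 and 10.3 reads per 100 *Rela* reads (ratio 0.971 [0.754 to 1.24]). *Nfkb1* was the one gene whose interval lay above 1, and only just, at 83.4 and 93.2 (ratio 1.12 [1.003 to 1.25]). In all, 7 of the 9 ratios had an interval below 1, and these intervals, conditional on the reads, were not adjusted for the number of ratios.

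Levels were compared between genes only per kilobase of the longest annotated transcript. *Nfkbia* led in both libraries, at 40.9 per kilobase in WT+AKI and 15.5 in TG+AKI, followed by *Rela* at 22.5 and 10.7. *Rel* came last in both, at 0.866 and 0.400. The middle of the order differed, since *Nfkb2* stood above *Nfkb1* in WT+AKI (17.9 and 12.3) and below it in TG+AKI (3.65 and 6.54). By exact Poisson intervals of the reads, *Nfkb1* and *Nfkbiz* (12.3 and 11.9) and *Relb* and *Tnfaip3* (5.42 and 5.30) could not be ordered in WT+AKI. In TG+AKI, the intervals of *Bcl3* (1.37), *Tnfaip3* (1.08) and *Relb* (0.913) each overlapped that of the next gene down, which for *Relb* was *Nfkbie* (0.683).

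The mix of subunit transcripts shifted accordingly. *Rela* made up 38.1% of the summed subunit level per kilobase in the wild-type and 48.2% in the transgenic kidney, and *Nfkb1* 20.8% and 29.4%. *Nfkb2* made up 30.4% and 16.4%, and *Relb* 9.20% and 4.11%. *Rel* was a minor part in both, at 1.47% and 1.80%. In the transgenic kidney the subunit pool therefore held more *Rela* and *Nfkb1* and less *Nfkb2* and *Relb*, as shares of a pool whose summed level per kilobase was 58.9 in the wild-type and 22.2 in the transgenic kidney. The transcript length that is used matters for these shares. With the median length, *Rela* was at 60.4% and 69.3% and *Nfkb2* at 18.4% and 9.04%, with the same direction for each subunit.

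**Figure D3:**
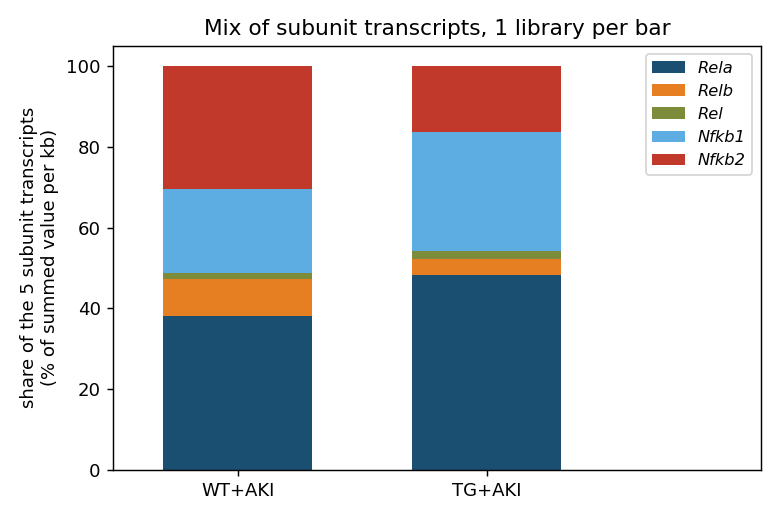
Share of each subunit in the summed level of the 5 subunit transcripts (percent, value per kilobase), 1 library per bar. *Nfkb2* takes 30.4% of the WT+AKI bar and 16.4% of the TG+AKI bar, and *Rela* 38.1% and 48.2%.

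The rest of the pathway was then laid out by role. For the counts that follow, 10.5% of all genes compared were at least 2-fold lower and 7.02% at least 2-fold higher. Among the other IκB proteins and their partners, 1 of 4 genes was at least 2-fold lower, and their median log2 fold change was -0.11. *Nfkbid*, a further nuclear IκB protein, was at 2.17 (92 reads) and 0.996 (33 reads), 2.18-fold lower [1.45 to 3.35]. This gene reached the minimum value in WT+AKI only. *Nfkbib*, which encodes IκBβ, differed little, at 27.1 and 21.9 (1.24-fold lower [1.13 to 1.36]). *Nkiras1*, which encodes a Ras-like protein that binds IκB, was at 24.9 and 29.1. Its ratio of TG+AKI to WT+AKI was 1.17 [1.07 to 1.28], and 0.965 with equal column totals.

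The kinases and adaptors had levels closer to each other in the 2 kidneys. All 25 were compared, and 4 (16%) were at least 2-fold lower, near the 10.5% of all genes. None was at least 2-fold higher, against 7.02% of all genes, and the median was -0.14. Of the IKK complex, *Chuk* (IKKα) was at 211.4 and 195.8, 1.08-fold lower [1.05 to 1.11]. *Ikbkb* (IKKβ) was at 86.5 and 59.6, 1.45-fold lower [1.37 to 1.53], and *Ikbkg* (NEMO) at 75.3 and 51.6, 1.46-fold lower [1.38 to 1.55]. None of these 3 reached 2-fold. *Map3k14*, which encodes NF-κB-inducing kinase, the entry to the non-canonical pathway, was at 19.5 and 7.10, 2.74-fold lower [2.37 to 3.18]. *Map3k8*, which encodes TPL2, a kinase held by the *Nfkb1* precursor p105, was at 7.57 and 2.66 (2.85-fold lower [2.24 to 3.65]). *Ikbke*, an IKK-related kinase gene, was at 13.8 and 5.80, 2.39-fold lower [2.03 to 2.83].

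Other brakes on the pathway included 5 of 18 genes (27.8%) at least 2-fold lower and none at least 2-fold higher, with a median of -0.45. *Birc3* (cIAP2), a ubiquitin ligase of TNF receptor complexes, was at 39.5 and 10.3, 3.84-fold lower [3.42 to 4.33]. *Irak3* (IRAK-M), an inhibitor of Toll-like receptor signalling, was at 7.38 and 2.39, 3.09-fold lower [2.41 to 4.01]. *Zc3h12a* (Regnase-1), an RNase that limits inflammatory transcripts, was at 8.30 and 2.69, also 3.09-fold lower [2.44 to 3.94]. These 3 folds were below those of *Tnfaip3*, *Bcl3* and *Nfkbiz*, although the interval of each overlapped that of *Bcl3*, and that of *Birc3* also overlapped that of *Tnfaip3*.

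Of the ligands, 9 of 13 were in the table and 6 reached a value of 1, of which 4 were at least 2-fold lower (median -1.18). The lower count includes *Tnf* and *Tnfsf13b*, which reached the minimum value in WT+AKI only. The 3 ligands with the largest folds had at most 235 reads in either library. *Tnf* had 44 reads in WT+AKI and 8 in TG+AKI, 4.30-fold lower with a wide interval [2.001 to 10.6]. *Il1b* had 113 and 35 reads (2.52-fold lower [1.71 to 3.80]), and *Tnfsf13b*, which encodes the B-cell factor BAFF, had 235 and 32 reads (5.74-fold lower [3.95 to 8.58]). Of the receptors, 16 of 19 were compared, and 8 were at least 2-fold lower (median -1.05). These include *Il18r1* and *Tlr9*, which reached the minimum value in WT+AKI only. *Tnfrsf12a*, the receptor of TWEAK and an activator of the non-canonical pathway, was at 160.5 and 7.61, 21.1-fold lower [18.6 to 24.01]. *Tlr2* was at 10.5 and 2.42 (4.34-fold lower [3.42 to 5.58]) and *Tnfrsf1b* (TNF receptor 2) at 15.97 and 4.47 (3.57-fold lower [2.99 to 4.30]).

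Among the pathway lists, the known target genes outside the set included the largest differences. Of 33 listed targets 28 were in the table and 23 were compared. Of these, 17 were at least 2-fold lower, none was at least 2-fold higher, and the median was -2.21. The lower count includes genes that reached the minimum value in WT+AKI only, namely *Cxcl1*, *Cxcl2*, *Ccl5*, *Ccl20*, *Lif*, *Ptgs2* and *Mmp3*. Among the 5 targets below the minimum in both libraries, *Nos2* and *Ptx3* had higher values in TG+AKI. The other targets below it, *Sele*, *Il23a* and *Mmp9*, had lower values there. *Lcn2* (NGAL), a tubular injury marker, was at 249.8 and 1.87, 133-fold lower [104 to 174]. *Cxcl1*, a neutrophil chemoattractant, was at 44.0 and 0.544, 81.0-fold lower [51.1 to 137]. *Lif*, a cytokine of the IL-6 family, was at 47.3 and 0.936, 50.5-fold lower [35.5 to 74.6]. The members' own median of -2.02 lay close to that of the target list. These 3 targets, named because they had the largest folds of their list, differed far more than any member.

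**Figure D4:**
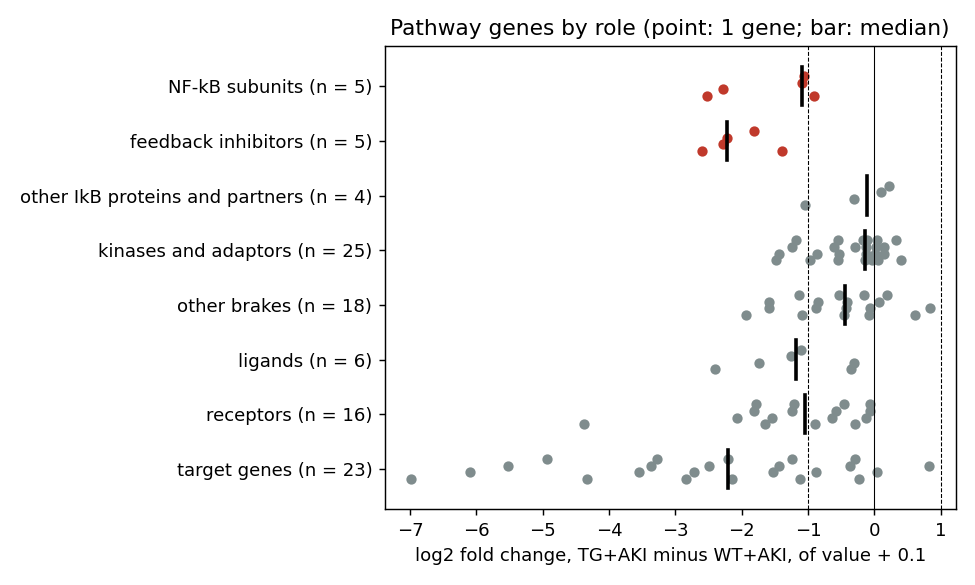
Log2 fold change (TG+AKI minus WT+AKI, of value + 0.1) of the NF-κB genes (red) and of other pathway genes (grey), grouped by role, with 1 point per gene and a bar at the median. The medians lie at -1.09 for subunits and -2.22 for inhibitors, against -0.14 for kinases and adaptors and -2.21 for target genes, and no gene compared lies at or beyond the dashed line of 2-fold higher.

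In whole-kidney RNA, fewer cells of a type and less RNA per cell cannot be told apart, and several cell type markers moved with the members. The 3 pan-leukocyte markers summed to 43.7 in WT+AKI and 19.4 in TG+AKI, 2.26-fold lower, and 2 of the 3 were at least 2-fold lower. *Ptprc* (CD45) alone was 1.89-fold lower [1.62 to 2.201], a fold near those of *Rela*, *Rel* and *Nfkb1*. Of 5 macrophage markers 4 were at least 2-fold lower, from 2.63-fold for *Adgre1* to 26.7-fold for *Cd68*. They summed to 132 and 63.3 with the fifth, *Csf1r*, which was at 37.5 and 43.0 (0.949 as a ratio with equal totals). The 3 neutrophil markers in the table summed to 7.38 and 1.42. T cell (2.22 and 2.63) and B cell (1.46 and 1.87) markers summed to low values in both libraries. The 4 dendritic cell markers summed to 21.4 and 17.5, with *Zbtb46* at 15.8 and 14.2, *Itgax* at 5.14 and 1.78 and *Flt3* at 0.330 and 1.24. The 4 endothelial markers summed to 228 and 243, with *Pecam1* at 81.5 and 59.6 and *Kdr* at 58.5 and 96.4. Scaling to the same total changed the side for T cell and endothelial markers, with sums of 2.17 and 201 in TG+AKI.

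Tubular markers showed a kidney tissue in both libraries, in different states. The 4 proximal tubule markers summed to 1933 and 9435, and each was at least 2-fold higher in TG+AKI. Both thick ascending limb markers were higher too, summing to 1822 and 2970. The 4 injured tubule markers, *Havcr1*, *Krt20*, *Sox9* and *Lcn2*, summed to 1829 and 5.53. *Lcn2* is thus counted both here and among the target genes. The part of leukocyte content, tubular transcripts or the degree of injury in the differences of the NF-κB genes was not tested. With 1 library per group, genotype cannot be told apart from other differences between the mice used.

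The reads behind these values could be assigned to the members with little ambiguity. No 100-base word of the longest transcript of any of the 10 genes occurred in a transcript of another gene. *Nfkb2* shares 6.52% of its exonic bases with *Psd* on the opposite strand, which was at 1.23 and 1.21, and 11.6% with a non-coding RNA on the opposite strand. *Bcl3* shares 6.51% with an antisense gene. The sources used here do not give the strand setting of the counting, so reads in these stretches cannot be told apart.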

How the data were processed

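Kidney mRNA libraries (TruSeq Stranded mRNA kit) were used, 1 per group. The submitters' processing notes and the study's methods name STAR 2.7.3a, HTSeq and DESeq2, and the notes add edgeR and build mm10. The annotation and strand setting are not given in the sources used here. The deposited signal values were made by the authors as read counts divided by a library factor. Every value was a whole multiple (tolerance 0.001) of the smallest in its column (100% in both libraries), so reads were recovered, and each gene in the table had at least 1 in each library. One read equals 0.0236 in WT+AKI and 0.0302 in TG+AKI.

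Log2 fold changes use value + 0.1. A minimum value of 1 in either library (42.4 and 33.1 reads) was required, and at least 2-fold counted as different. No test of the conditions was possible. An exact binomial test of the reads, which compares only these libraries, gave a Benjamini-Hochberg adjusted p under 0.05 for 11047 of 14997 genes. Intervals of ratios to *Rela* are exact and conditional. PCR reads are not independent molecules.

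The members and gene lists were chosen with earlier results of these data known. Besides the members, the 3 genes of each pathway list with the largest absolute log2 fold change and 4 IKK-related genes are named. Lengths and overlaps are from GENCODE M21, coordinates from RefSeq GRCm38.p6, and 14 list genes had no row. Procedures were tested on simulated data. Python 3.11.15, numpy 2.4.6, pandas 2.3.3 and scipy 1.17.1 were used.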

Additional observations from a re-analysis of the deposited data

How the results depend on the processing

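All 10 members were lower in TG+AKI under every pseudocount and scaling tried. The number at least 2-fold lower was 8 with a pseudocount of 1, 10 with equal column totals, with a median ratio of 1 over well-expressed genes or with a 1.5-fold limit, and 7 of the 8 genes left with a minimum value of 10. The median of the members was -1.68 with a pseudocount of 1, which shrinks low genes by construction. Over all genes, equal column totals gave 666 genes at least 2-fold higher. A minimum value of 10, which compares fewer genes, gave 784 lower and 625 higher, and a 1.5-fold limit gave 2872 lower and 2306 higher. Adding the exact binomial test to the 2-fold limit removed no gene. At the minimum value the reads are enough for a 2-fold difference to pass that test, so it is not a separate check. Of 50 recomputed fold changes of single members, 12 moved beyond counting error and none turned. Size factors by median of ratios, planned for the recovered reads, shifted the median of all genes by 0.017. No paired analysis was possible because each group has 1 library. Depth limits *Rel*, *Relb*, *Bcl3* and *Nfkbie*, which had 68 to 99 reads in TG+AKI.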

Other observations

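Of the 92 other pathway genes compared, 16 had a higher value in TG+AKI, against 7301 of all 14997 genes compared. Of these 92, 0 were at least 2-fold higher, against 7.02% of all genes. The 92 include genes that reached the minimum value in WT+AKI only. The genes named here were chosen after their values were seen. *Sod2*, the mitochondrial superoxide dismutase and a known NF-κB target, was at 156 in the wild-type and 277 in the transgenic kidney, a ratio of 1.78. *Sigirr*, a receptor that dampens interleukin-1 and Toll-like receptor signalling, was at 39.9 and 71.0, also a ratio of 1.78. *Commd1*, which promotes the removal of RelA, was at 24.3 and 37.2, a ratio of 1.53. The targets *Nos2* (9 and 18 reads) and *Ptx3* (4 and 11 reads) were below the minimum value and were not among the genes compared, and their ratios were 2.56 [1.09 to 6.47] and 3.52 [1.04 to 15.2]. With equal column totals the ratios of *Sod2*, *Sigirr* and *Commd1* were 1.47, 1.47 and 1.27, still above 1.

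Outside the members, genes with a κB match in a listed promoter were at least 2-fold lower in TG+AKI in 12.7% of 1398 cases, and genes without one in 9.95% of 9999. The shares at least 2-fold higher were 6.29% and 7.03%. These are descriptions of 2 libraries, with no test.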
